A study of Mus musculus with 5 samples.

Results

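Aqp5, the gene of the water channel aquaporin-5 (ENSMUSG00000044217), was examined in single-cell RNA-seq libraries of mouse submandibular salivary gland cells. It is 1 gene of the 30406 that were listed in all 5 libraries, and it was chosen by name together with earlier results of these data. Its level, the share of cell barcodes that held it, and the genes that differed between barcodes with and without it are therefore given as descriptions.

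Aquaporins are membrane proteins that form a pore for water, and some of them also pass glycerol. Aquaporin-5 sits in the apical membrane of acinar cells, the secretory cells of salivary, tear and sweat glands, where water follows the salt that these cells secrete. Its transcript is therefore widely used as a mark of the acinar lineage.

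The libraries came from mouse salivary gland organoids (mSGOs), which grow from dissociated gland cells embedded in a gel of basement membrane proteins (Matrigel), and from fresh gland tissue. All mice were female C57BL/6. The 7-day mSGOs were pooled from 4 animals of 8 to 12 weeks and formed 3 groups, namely untreated (control), 7 Gy of photons on day 5 and 7 Gy of protons on day 5, all collected on day 7. Untreated mSGOs were also collected on day 11, from another batch of 4 animals whose age was not given in the labels, and these were run separately, so age in culture cannot be told apart from that batch. The header of the 11-day matrix also names another software version (7.0.0) than the headers of the other 4 (3.0.1), and counting software cannot be told apart from age either. Fresh submandibular tissue of mice of 8 to 12 weeks formed the fifth group. All mSGOs grew in a medium with Wnt3a, R-spondin1 and the kinase inhibitor Y-27632. From each group 45000 cells that excluded propidium iodide were sorted. Each group held 1 library, so no difference was tested, and the 95% intervals below cover counting error only.

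Filters retained 1402 (tissue) to 15610 (photon) barcodes and 5932095 to 32070703 unique molecular identifiers (UMIs) per library, among them 6494 barcodes of the untreated 7-day, 15325 of the proton and 9484 of the 11-day mSGOs. Median barcodes of 7-day mSGOs held 898.5 to 1049 UMIs, whereas those of 11-day mSGOs held 3025 and those of tissue 2385.5. Of the 13547 deposited tissue barcodes, 11597 fell below the minimum number of genes. Those kept held a median of 278 genes, against 447 to 517 in 7-day and 1591.5 in 11-day mSGOs. All tissue values below thus rest on barcodes with few genes. Malat1, a transcript kept in the nucleus, made up at least 1% of the UMIs in only 8.95% to 16.0% of the kept 7-day barcodes and in 158 tissue barcodes, against 9369 of the 11-day barcodes. Values over all kept barcodes are therefore set beside values over these Malat1-containing barcodes. The organoid libraries carried the keratin of basal cells, Krt14, at 1650 to 6096 CPM (UMIs of a gene per 1000000 UMIs) against 5.73 CPM in tissue. Tissue carried the acinar products Prol1 and Smgc at 24635 and 6982 CPM, and the 13 acinar products listed together came to 58790 CPM there, against 0.121 to 0.552 CPM in 7-day and 47.2 CPM in 11-day mSGOs. In the untreated 7-day library 11 of these 13 products were at 0. The lists of macrophage, endothelial, T or NK cell and fibroblast markers each summed to at most 26.0 CPM in any organoid library, against 1477, 419, 62.5 and 9.61 CPM in tissue.

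Aqp5 lies on chromosome 15 at chr15:99488532-99492710 of GRCm39, on the plus strand, in 4 exons with 265 codons before the stop codon. The nearest protein-coding genes on the same strand are Aqp2, a vasopressin-regulated water channel of the kidney (chr15:99476936-99485016), and Aqp6 (chr15:99499075-99503358). A lncRNA of the same strand, Gm62815 (chr15:99485591-99486673), lies between Aqp2 and Aqp5. Another lncRNA, Gm34765, spans Aqp5 on the minus strand (chr15:99476175-99500490) and was in no library's gene list. Aquaporins share a pair of asparagine-proline-alanine (NPA) motifs that meet in the middle of the pore. The 45 coding bases around each of them are shown because they are the part of the coding sequence that marks these genes as one family and lets Aqp5 be set beside its neighbours. The sequences were read from GRCm39 in the coding direction, and the capitals mark the NPA codons.
Aqp5 motif 1: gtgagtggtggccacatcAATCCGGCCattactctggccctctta
Aqp5 motif 2: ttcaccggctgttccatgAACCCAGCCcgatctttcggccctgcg
Aqp6 motif 2: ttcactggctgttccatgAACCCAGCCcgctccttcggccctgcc
Aqp2 motif 2: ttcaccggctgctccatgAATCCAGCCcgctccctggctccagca
Aqp1 motif 2: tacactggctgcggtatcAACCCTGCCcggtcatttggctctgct
Aqp3 motif 2: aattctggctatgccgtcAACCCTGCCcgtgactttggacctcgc
Motif 1 of Aqp5 begins at codon 69 in exon 1 (chr15:99489339-99489383) and motif 2 at codon 185 in exon 3 (chr15:99491133-99491177). Around motif 2 the neighbour Aqp6 (chr15:99500856-99500900) had 41 of 45 bases the same as Aqp5, and Aqp2 (chr15:99480987-99481031) had 35. Aqp1 (chr6:55322804-55322848) had 32, and Aqp3, which also passes glycerol (chr4:41093823-41093867, minus strand), had 26. Around motif 1 the same genes shared 27 to 30 bases with Aqp5.

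The level of Aqp5 was highest in fresh tissue and lowest in the irradiated mSGOs. It was 30.8 CPM (28.1 to 33.7, 487 UMIs) in the untreated 7-day library. After photons it was 8.95 CPM (7.83 to 10.2, 227 UMIs), and after protons 8.27 CPM (7.18 to 9.48, 205 UMIs). It was 13.6 CPM (12.3 to 14.9, 436 UMIs) in 11-day mSGOs and 199.8 CPM (189 to 211, 1185 UMIs) in tissue. The order from high to low was tissue, untreated 7-day, 11-day, photon and proton, and only the intervals of the photon and proton libraries overlapped. Where Malat1 made up at least 1% of a barcode's UMIs, the order was the same, at 102 CPM in tissue, 34.4 CPM in the untreated 7-day, 13.1 CPM in the 11-day, 8.13 CPM in the photon and 7.05 CPM in the proton library. The tissue level was thus lower in these barcodes than over all kept barcodes, and its log2 ratio to the 7-day control was 1.54 there and 2.66 over all. In sums over a library, fewer cells with Aqp5 and less Aqp5 per cell cannot be told apart.

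**Figure D1:**
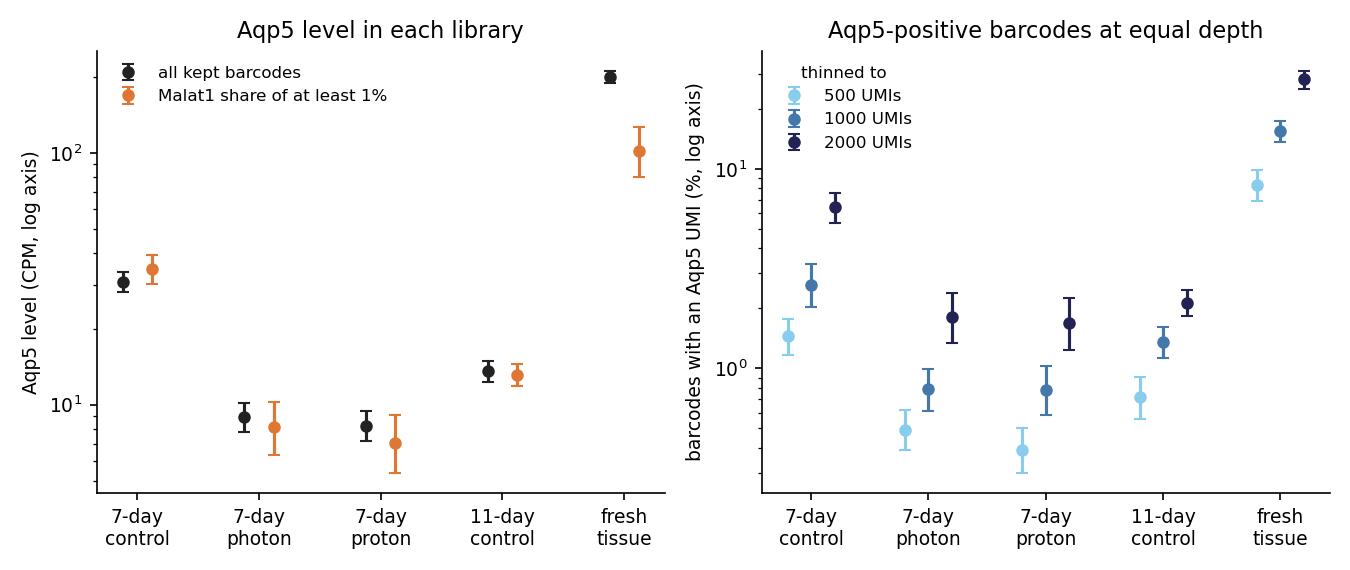
Aqp5 in the 5 libraries. The first panel plots the level in CPM (log axis) over all kept barcodes and over the Malat1-containing ones, and the other panel plots the percentage of barcodes with an Aqp5 UMI (log axis) after thinning to 500, 1000 or 2000 UMIs. Points are library values and bars 95% counting intervals. Tissue is highest at 199.8 CPM, and the photon and proton libraries sit side by side at 8.95 and 8.27 CPM.

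To describe irradiation, each irradiated library was set against untreated mSGOs of the same age. Aqp5 was 3.20-fold lower after photons, a log2 ratio of -1.68 (-1.89 to -1.46), while the median over 4358 genes was 0.09. It was 3.43-fold lower after protons, a log2 ratio of -1.78 with an upper bound of -1.56, against a median of 0.10 over 4342 genes. Of all genes tested, 0.252% lay at or below -1 after photons and 0.138% after protons, and Aqp5 had the lowest ratio of all in either comparison, the property for which it had been chosen. With median-of-ratios scaling 1 gene lay lower after photons and none after protons. Its rank from the lowest was 2 in either comparison when the barcode with the most Aqp5 was left out of each library. The rank was also 2 in either with no low-value filter on genes, and 5 and 3 with at most 1 Aqp5 UMI per barcode. Between protons and photons, where 0.0457% of genes lay at or below -1, the log2 ratio was -0.10 (-0.35 to 0.15), an interval that leaves room for a level up to 0.35 lower or 0.15 higher after protons. Both irradiated libraries share the one control library. The control had fewer barcodes, so the rule for doublets, which scales with their number, removed 5.50% of them against 14.6% and 14.3%. With no doublets removed the ratios were -1.61 after photons and -1.79 after protons. Without the control barcode that held the most Aqp5, 27 UMIs, and without the top barcode of each irradiated library, the ratios were -1.63 and -1.74. With each barcode counted as at most 1 UMI they were -1.21 and -1.33.

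With age in culture Aqp5 was 2.18-fold lower in 11-day than in untreated 7-day mSGOs, at a log2 ratio of -1.12 (-1.30 to -0.94). The median over 6608 genes was 0.96 in that comparison, so relative to it Aqp5 lay at -2.09, and 5.84% of genes were at or below -1. With median-of-ratios scaling Aqp5 was at -1.87, the median gene at 0.06, and 18.3% of genes were at or below -1 and 26.0% at or above 1, against 48.8% at or above 1 in CPM. Tissue stood 6.31-fold above the untreated 7-day library, at 2.66 (2.51 to 2.81), where the median gene was at -1.78 and 5.17% of genes were at or above 1. It stood 13.8-fold above the 11-day library, at 3.78 (3.63 to 3.93), with a median of -2.46 and 2.87% of genes at or above 1. In CPM 78.6% and 90.6% of genes lay at or below -1 in these comparisons. With median-of-ratios scaling these shares were 31.9% and 34.4%, the shares at or above 1 were 16.6% and 14.6%, and Aqp5 was at 3.98 and 5.67. The tissue sums include Aqp5 UMIs in barcodes of cells that should lack it, which are described below.

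Barcodes with more UMIs more often hold a rare transcript, so each barcode with at least 1000 UMIs was thinned to that depth. At 1000 UMIs, 67 of 2557 untreated 7-day barcodes (2.62%, 2.04 to 3.32) held Aqp5, against 70 of 8893 after photons (0.787%) and 53 of 6768 after protons (0.783%). The shares were 1.35% (126 of 9334) in 11-day mSGOs and 15.4% (214 of 1387) in tissue. This left out 3937 control, 6717 photon, 8557 proton, 150 11-day and 15 tissue barcodes as too shallow. Without thinning the shares were 5.04%, 1.36%, 1.23%, 3.58% and 32.7% in the same order. Among Malat1-containing barcodes at 1000 UMIs the untreated 7-day share was 1.90% (1.15 to 2.95) and the photon share 1.07% (0.61 to 1.73), and these intervals overlapped. The proton share was 0.671% (0.307 to 1.27), which overlapped them too, the 11-day share was 1.29% and the tissue share 8.28%. No barcode that held Aqp5 in one library held it in another, and at most 0.642% of kept barcodes were shared by any pair of libraries.

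In tissue, cells that should lack a water channel of acinar cells also gave Aqp5 UMIs. Endothelial-like cluster 6, with a median of 2014.5 UMIs per barcode, held Aqp5 in 12.0% of barcodes at 1000 UMIs and endothelial-like cluster 7, with 3556 UMIs, in 3.17%. The T or NK-like cluster, at 2258 UMIs, held it in 12.5% (4.73 to 25.2), an interval that includes the 21.6% of the highest cluster. Cluster 9, in which all 8 macrophage markers were high, held it in 2.08%. Cluster 1, unnamed and led by the haem and globin genes Alas2, Hbb-bt and Hba-a1 of red blood cells, held it in 16.2% (12.3 to 20.8), above the 15.4% of the whole library. Tissue shares at or below 16.2% are therefore not read here as expression, and the share of the whole library is one of them. Clusters 4, 3 and 2 lay above it, at 21.6% (14.5 to 30.1), 19.8% (15.3 to 24.9) and 18.4% (14.2 to 23.2). Each of these intervals included 16.2%. The organoid libraries held no cluster of a cell type that should lack Aqp5, so this background could not be measured there.

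The UMIs of Aqp5 were spread unevenly among barcodes. In untreated 7-day mSGOs 27 barcodes held at least 3 Aqp5 UMIs, with up to 27 in a barcode, and these barcodes carried 32.9% of the library's Aqp5. Only 3 barcodes in each irradiated library reached 3 UMIs, with a maximum of 5 after photons and 6 after protons. Barcodes with exactly 1 UMI held 90.3% and 87.3% of the Aqp5 of the photon and proton libraries, against 56.1% of the control's. In the 11-day library 13 barcodes reached 3 UMIs, with a maximum of 10, and carried 14.9% of its Aqp5. In tissue 79 barcodes did, with up to 60, and carried 62.0%. Such barcodes were deep, with medians of 9502 UMIs in the control and 16655 in tissue, and 20 of the 27 control barcodes held Malat1 at 1% or more, against 9 of the 79 in tissue.

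**Figure D2:**
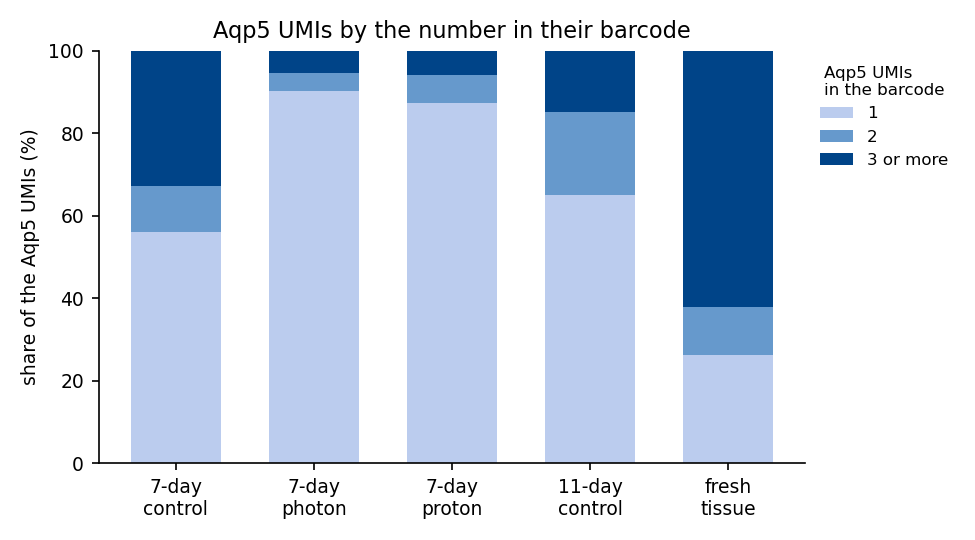
Share of each library's Aqp5 UMIs that came from barcodes with 1, 2 or at least 3 of them. Bars are stacked percentages of the library's Aqp5 UMIs. Barcodes with at least 3 UMIs hold 62.0% in tissue and 32.9% in the untreated 7-day library, and barcodes with 1 UMI hold most of the Aqp5 in the irradiated libraries.

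To see where in the cultures Aqp5 was found, barcodes were clustered without Aqp5 on the merged 7-day, the 11-day and the tissue libraries. In untreated 7-day mSGOs the level was highest in cluster 6, which was led by Ptprz1, a receptor tyrosine phosphatase, and Tpm1, a tropomyosin. Its next leading genes were, in order, Kcnq1ot1, Nav2, mt-Nd4l, Timp3 and Sostdc1, a secreted antagonist of BMP and Wnt signals. It had 1275 barcodes with a median of 8211 UMIs, and it stayed unnamed, as 3 of 10 cycling markers (Aurkb, Cenpf and Mki67) were high in it but none was among its leading genes. Aqp5 was at 58.9 CPM (51.0 to 67.6) in its untreated barcodes, 12.6 CPM (9.40 to 16.5) after photons and 11.9 CPM after protons. After irradiation other clusters were as high, with cluster 3 at 12.6 CPM after photons and cluster 4 at 11.9 CPM after protons. Cluster 6 held 40.9% of the control's Aqp5 and 27 of the 33 7-day barcodes with at least 3 UMIs. At 1000 UMIs, 18 of its 381 untreated barcodes (4.72%, 2.82 to 7.36) held Aqp5. After photons 5 of 466 did (1.07%, 0.349 to 2.49) and after protons 7 of 427 (1.64%, 0.662 to 3.35), and the proton interval overlapped that of the control. Cluster 5, led by Malat1 and Xist and with the cornified envelope gene Sprr1a among its leading genes, was lowest. It was at 12.8 CPM without irradiation and at 4.07 and 3.04 CPM after photons and protons. Control barcodes of the other 4 clusters lay between 22.4 and 29.7 CPM. In these clusters, 1 to 4, the median Malat1 share was 0.185%, 0.148%, 0.185% and 0.0654%, against 8.49% in cluster 5 and 4.19% in cluster 6. Clusters 1 to 3 were also shallow, with medians of 1045, 857 and 760 UMIs, and each had Gm42418 and Lars2 among its leading genes.

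Aqp5 was lower after irradiation in each of the 6 clusters. Clusters 1 to 4 held barcodes with little Malat1 and are not read here as separate cell populations. The log2 ratio to the control ran from -2.14 in cluster 6 to -0.88 in cluster 3 after photons, and from -2.21 in cluster 6 to -1.25 in cluster 4 after protons, with every interval below 0. When the irradiated libraries were weighted to the control's cluster shares, their levels were 9.52 and 8.74 CPM and the ratios -1.60 and -1.71. These ratios were nearly as large as those without weighting. The clusters are unnamed, and whether cell type composition contributed to the difference was not tested.

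In 11-day mSGOs Aqp5 was highest in cluster 8, of 300 barcodes, at 92.5 CPM (73.4 to 115). This cluster was led by Acta2, the smooth muscle actin of myoepithelial cells, with Igfbp2, Sfrp1 and Prkg1, but only 2 of 7 myoepithelial markers marked it, so it stayed unnamed. At a clustering resolution of 0.4 a cluster of 278 barcodes at 94.0 CPM met the rule for the name myoepithelial-like, so the name depends on the resolution. Of the barcodes of cluster 8, 14.0% held Aqp5, and 8.45% did at 1000 UMIs. Cycling-like cluster 10 followed at 62.7 CPM (46.4 to 82.9), an interval that overlapped that of cluster 8. All 10 cycling markers marked it, and the acinar product genes Dcpp1 and Dcpp3 were among its leading genes. Of the 11 acinar markers measured, only 1, Dcpp1, marked it. Cluster 8 held 7 and cluster 10 held 4 of the 13 barcodes with at least 3 Aqp5 UMIs. Cluster 3, with Meg3, Adam12 and Sostdc1 in the lead, had 19.8 CPM, and cluster 7, led by the sterol synthesis genes Idi1 and Fdps, had 17.7 CPM. The other clusters lay between 3.39 and 11.6 CPM, apart from cluster 12, where 0 of 32 barcodes held Aqp5.

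In tissue Aqp5 was highest in acinar-like cluster 4, at 282 CPM (260 to 304), led by Fam13a, the submandibular gland mucin-like gene Smgc, Homer2 and Etv1. Its 121 barcodes held 54.3% of the library's Aqp5 and 51 of the 79 barcodes with at least 3 UMIs. The other acinar-like cluster, number 3, was led by Dcpp1, Dcpp2, Dcpp3 and Bpifa2, which encode secreted saliva proteins, and had 207 CPM. Cluster 2, unnamed and led by Wfdc2 and the kallikrein gene Klk1b4, was alike at 208 CPM. The level was 64.1 CPM in the granular or striated duct-like cluster and 148 and 44.3 CPM in the endothelial-like clusters. By level Aqp5 was thus highest in an acinar-like cluster of tissue, though the share of that cluster at 1000 UMIs was not clear of the 16.2% of cluster 1. The named acinar products were at or near 0 in 7-day mSGOs.

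**Figure D3:**
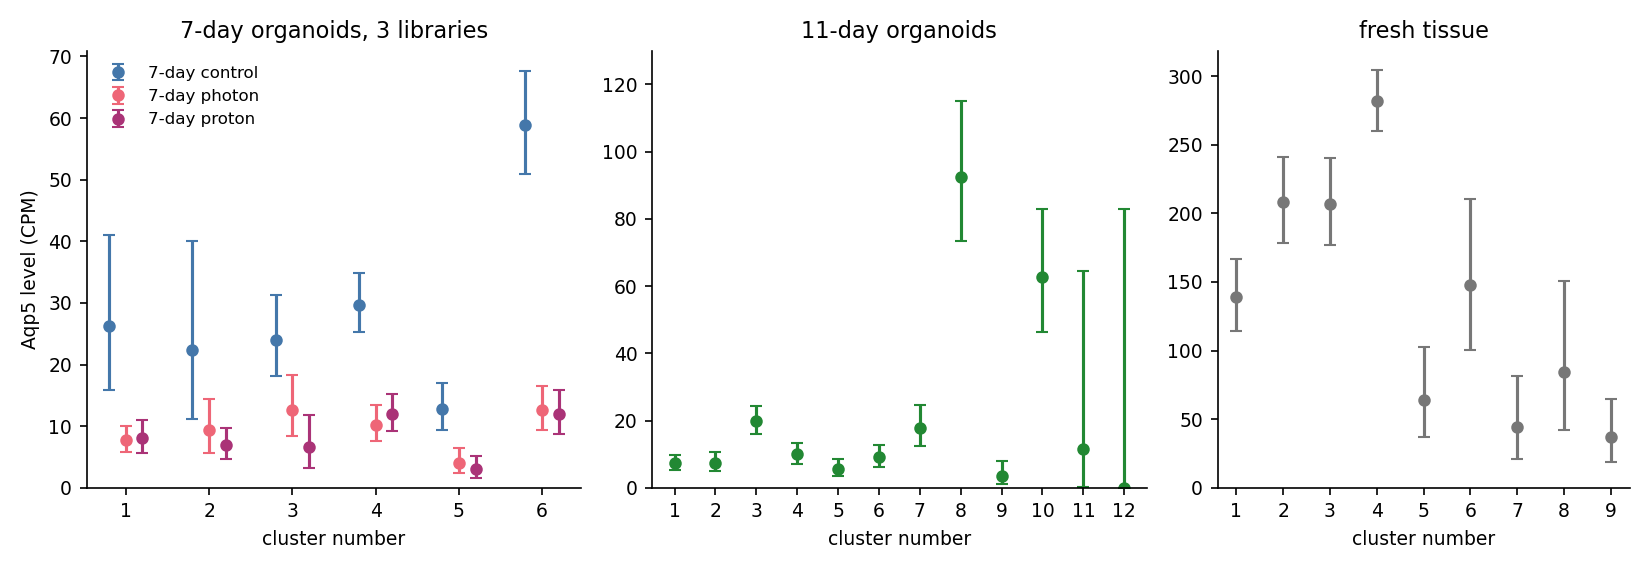
Aqp5 level in CPM by cluster in the 7-day, 11-day and tissue libraries. Points are clusters, by library in the 7-day panel, and bars are 95% counting intervals. The highest points are 58.9 CPM in untreated cluster 6 of 7-day mSGOs, 92.5 CPM in cluster 8 of 11-day mSGOs and 282 CPM in acinar-like cluster 4 of tissue.

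To describe which genes went with Aqp5 in the mSGOs, barcodes with at least 1 Aqp5 UMI were compared with barcodes without one, all with 1% or more of their UMIs from Malat1. There were 104 positive and 933 negative barcodes in the control, 57 and 1511 after photons, 43 and 1329 after protons and 332 and 9037 in the 11-day library. Positive barcodes were deeper, with medians of 9178.5, 8586, 9092 and 3641 UMIs against 5563, 4313, 5249 and 3002, so negative barcodes were weighted to the depths of the positive ones. A gene's value is the log2 ratio of its UMIs in positive barcodes to those expected from the weighted negative ones. Because the barcodes were chosen on a count of 1 UMI, which free RNA can give, both sets are mixtures, and intervals do not include the spread among barcodes.

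In untreated 7-day mSGOs 30 of 4603 genes (0.652%) lay at or above 1 and 42 (0.912%) at or below -1. The numbers were 23 (0.796%) and 45 (1.56%) of 2889 genes after photons, and 22 (0.931%) and 31 (1.31%) of 2364 after protons. In the 11-day library they were 38 (0.524%) in either direction, of 7252 genes. Of the 2300 genes tested in all 4 libraries, 532 were higher and 305 lower in Aqp5-positive barcodes throughout, and the interval lay above 0 in all 4 for 49 and below 0 in all 4 for 38.

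Sostdc1, a secreted antagonist of BMP and Wnt signals that was also among the leading genes of the Aqp5-rich 7-day cluster 6, was among the genes highest in positive barcodes. In the control it had 306 UMIs where 124 were expected, 301 against 122 CPM, a log2 ratio of 1.29 with a lower bound of 1.09 that came from 46 of 104 positive barcodes. In the 11-day library it had 310 against 132 CPM, at 1.23 (1.08 to 1.37), from 132 barcodes. The ratio was 0.84 after photons. After protons it was 0.73, but 31 of its 57 UMIs there lay in 1 barcode, and without that barcode it was -0.33 (-0.93 to 0.22). With negative barcodes taken from the same cluster as well as the same depth, Sostdc1 was at 0.83 in the control, 0.41 after photons, 0.24 after protons and 0.35 in the 11-day library.

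Other genes that the naming rule placed highest over the 4 libraries follow with their values. Lgals1, the galectin-1 gene, had log2 ratios of 0.83, 1.30, 1.14 and 0.63 in the control, photon, proton and 11-day libraries, with 348 against 195 CPM in the control. In the same order Sparc, a matrix glycoprotein, had 0.54, 1.46, 0.85 and 0.34. Igfbp7, a secreted binding protein, had 0.68, 0.78, 1.18 and 0.28, and Col8a1, a collagen chain, had 0.76, 0.51, 0.54 and 0.61. The calcium-binding genes S100a6 and S100a10 had 0.46 to 0.57 and 0.20 to 0.55.

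Dtymk, a kinase that makes thymidine diphosphate for DNA synthesis, had 1.05, 1.02, 1.18 and 0.48. Ccnd1, which encodes cyclin D1, had 0.72, 0.72, 0.42 and 0.27. The rest of these highest genes were Ly6c1 (0.44 to 0.94), Tmem176b (0.18 to 0.72), Ociad2 (0.43 to 0.88), Tmsb10 (0.36 to 0.49), Hmgn1 (0.21 to 0.50) and Ppia (0.21 to 0.40). With clusters matched, 11-day values were mostly near 0, with Lgals1 at -0.09, Col8a1 at -0.02, Sparc at 0.10, S100a10 at 0.02 and Ccnd1 at 0.08. Ly6c1 was at 0.49 there, and Igfbp7 turned below 0, to -0.26 (-0.44 to -0.10). In the 7-day libraries Lgals1 was then between 0.58 and 1.04, Igfbp7 between 0.40 and 0.80 and Ly6c1 between 0.57 and 0.70, while Col8a1 was at 0.42 without irradiation and at 0.18 and 0.15 with it.

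The 10 genes that the naming rule placed lowest were Krt13, Krt6a, Dmkn, Sprr2d, Sprr2f, Sprr1a, Crct1, Psca, Cdkn1a and Malt1. Krt13, the keratin of upper layers of moist stratified epithelia, was at 360 CPM in positive control barcodes where 920 CPM were expected, a log2 ratio of -1.35 with a lower bound of -1.51. It was at -1.55 after photons, -1.74 after protons and -2.07 in the 11-day library, and with clusters matched it was at -0.70 to -1.13 in all 4. Krt6a, a keratin of activated epidermal cells, had -1.03, -1.08, -1.14 and -0.48, and with clusters matched -0.71, -0.61, -0.59 and 0.0048. Dmkn, a secreted epidermal protein, had -1.02, -0.92, -1.70 and -0.63, and was at -1.62 after photons without the barcode that held 92 of its 232 UMIs. With clusters matched it was at -0.58 in the control and -0.70 after protons, but at -0.00065 after photons and -0.22 in the 11-day library, both with intervals that included 0.

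Sprr2d, Sprr2f and Sprr1a encode small proline-rich proteins, which are cross-linked into the cornified envelope, and they were low in all 4 libraries with much unevenness among barcodes. Sprr2d had -0.94, -2.72, -3.58 and -1.81, and 39 of its 44 UMIs in positive 11-day barcodes lay in 1 barcode, without which it was -4.69. With clusters matched it was at -0.43, -0.84, -2.08 and -0.21, the last with an interval that included 0. Sprr2f had -0.61, -1.28, -2.36 and -5.90, the last from 2 UMIs where 178 were expected, and without the 1 positive barcode in each that held 873 of 2218 and 237 of 694 UMIs the control and photon values were -1.32 and -1.85. With clusters matched it was at -0.03 (-0.09 to 0.04) in the control, 0.32 after photons, -1.05 after protons and -4.78 in the 11-day library. Sprr1a had -2.08, -2.16, -0.66 and -0.66, and 258 of its 323 UMIs in positive proton barcodes lay in 1 barcode, without which it was -2.90. With clusters matched Sprr1a was at -1.53, -0.34, 0.80 and -0.31, so it turned above 0 in the proton library. Crct1, from the same gene complex of epidermal differentiation, had -0.91, -1.63, -2.85 and -3.48.

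Psca, a surface protein of some epithelia, had -0.95, -2.13, -1.69 and -7.09, the last from 2 UMIs against 407 expected. With clusters matched it was at -4.64 in the 11-day and -0.69 in the control library but at -0.16 and -0.15 after photons and protons, with intervals that included 0. Crct1 was then at -0.19 in the control and 0.41 after photons, intervals that included 0, and at -1.23 after protons. Cdkn1a, which encodes the cell cycle inhibitor p21, had -0.79, -0.64, -0.54 and -0.86, so its values were below 0 in the unirradiated as in the irradiated mSGOs. With clusters matched it was at -0.53, -0.30, -0.13 (-0.34 to 0.07) and -0.49, so the proton interval then included 0. Malt1, a protease of NF-kappaB signalling, had -1.33, -1.09, -1.03 and -0.64. With clusters matched it was at -1.01 in the control and -0.31 (-0.68 to 0.04) in the 11-day library, and under the minimum in the irradiated libraries.

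**Figure D4:**
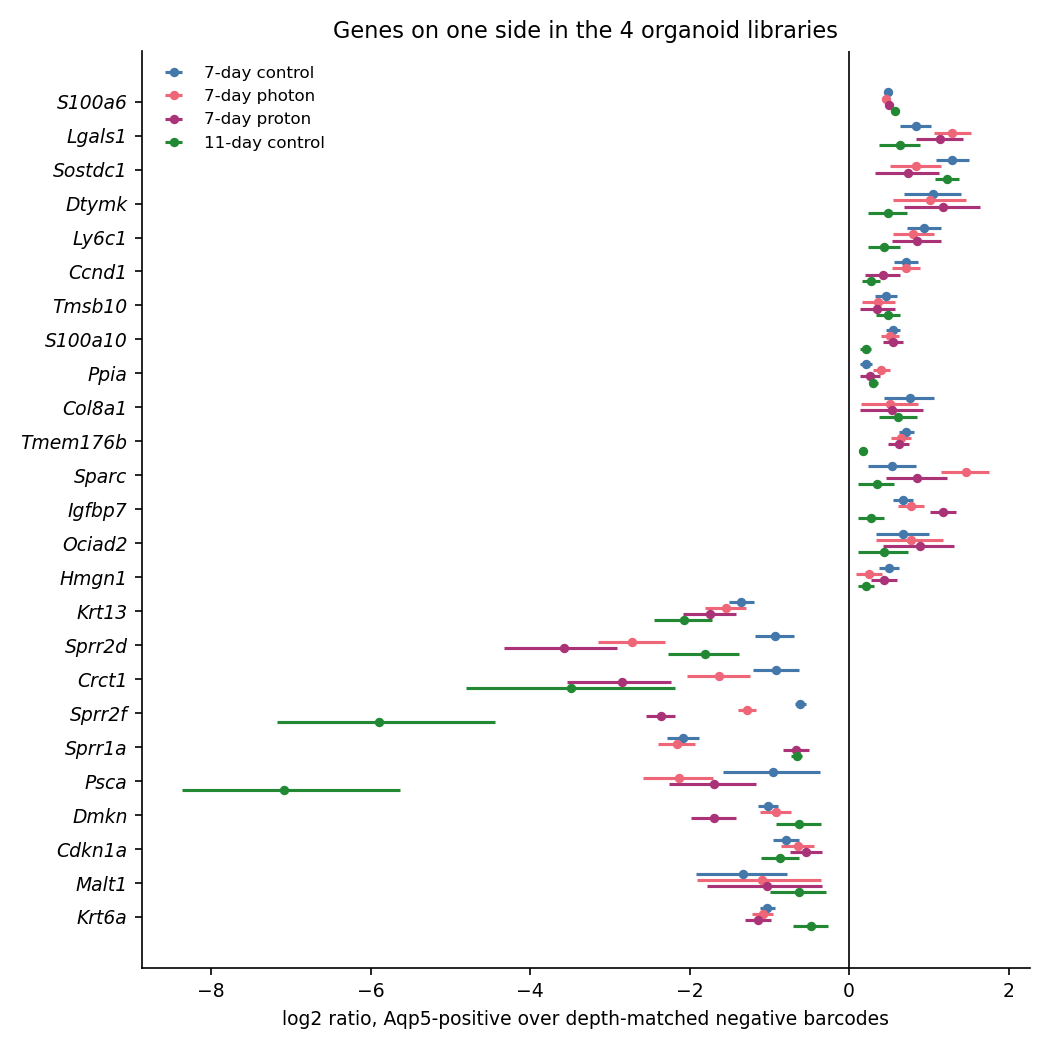
Log2 ratio of Aqp5-positive to depth-matched Aqp5-negative barcodes for the 25 genes named by rule over the 4 organoid libraries. Points are library values and bars 95% counting intervals that leave out the spread among barcodes. Sostdc1 and Lgals1 lie to the right of 0 and Krt13 to the left of 0 in all 4 libraries, with Krt13 between -2.07 and -1.35.

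The naming rule was also applied to each untreated library by itself. In 7-day control mSGOs the highest by rule included Mgp, matrix Gla protein, at 189 against 67.8 CPM and a log2 ratio of 1.47 (1.19 to 1.74). Ctnnal1, related to alpha-catenin, was at 1.36, and Porcn, the acyltransferase that lets Wnt ligands be secreted, at 1.29. Krt15, a basal cell keratin, was at 0.97 (0.85 to 1.08). With clusters matched they were at 1.22, 1.17, 1.05 and 0.70. The lowest there included Cnfn, cornifelin of the cornified envelope, at -2.14, Fst, the activin inhibitor follistatin, at -1.78 and 2610528A11Rik at -1.50. In the proton library Porcn and Cnfn lay in the same direction, at 1.24 and -2.90. Mgp lay in the opposite direction there, with 12 UMIs where 22 were expected, under the minimum, and with clusters matched at -1.26 (-2.13 to -0.48). Krt15 was at -0.27 after photons.

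In the 11-day library the 5 highest by rule were Pclaf, S100a4, Spc24, Ube2c and Nusap1. Pclaf, a partner of the replication clamp PCNA, was at 93.3 against 21.0 CPM, a log2 ratio of 2.11 (1.81 to 2.40) from 28 of the 332 positive barcodes. The kinetochore gene Spc24 was at 1.86, the spindle gene Nusap1 at 1.80 and Ube2c, which acts in mitotic protein degradation, at 1.56, with the calcium-binding S100a4 at 1.76. With clusters matched Pclaf was at 0.66, S100a4 at 0.99, Spc24 at 0.46, Nusap1 at 0.21 and Ube2c at -0.10, those of Spc24, Nusap1 and Ube2c with intervals that included 0. In the proton library Ube2c was at 1.41, or 0.67 without the barcode that held 43 of its 103 UMIs. It was at -0.25 in the control and -0.03 after photons, or -0.996 there without the barcode that held 24 of its 47 UMIs. Pclaf, Nusap1 and Ube2c were also among the leading genes of cycling-like cluster 10. The chemokine genes Ppbp and Cxcl3 were among the lowest, at -3.36 (23 UMIs where 245 were expected) and -2.53, and with clusters matched at -2.02 and -1.14.

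Gene lists chosen for the gland, with Aqp5 left out, were described in the same way. Of 16 cornification genes 9 were tested in each 7-day library. Of these, 4 lay at or below -1 without irradiation and 6 after either kind of it, and none at or above 1. Among all genes tested, the share at or below -1 was 0.912% (control), 1.56% (photon) and 1.31% (proton). The cornification medians were -0.94, -1.03 and -1.70, against medians over all genes of 0.08, 0.09 and 0.09. In the 11-day library 7 cornification genes were tested and 1 lay at or below -1, where 0.524% of all genes did. The median was -0.63 there, with -0.04 over all genes. With clusters matched the cornification medians were -0.57, -0.18, -0.70 and -0.22.

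Of 15 G2/M cycling genes 9 were tested in the 11-day library and all 9 lay at or above 1, where 0.524% of all genes tested did, with a median of 1.36, among them Ube2c at 1.56, Top2a at 1.29 and Cenpf at 1.28. With clusters matched this median was -0.08. In the control 10 were tested, 0 lay at or above 1 and the median was -0.04. After photons only Ube2c was tested, at -0.03. After protons the 3 tested were all at or above 1, against 0.931% of all genes, but Cenpf came from 3 barcodes there, with 18 of 36 UMIs in 1 of them.

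Genes of fluid secretion, the receptors and transporters by which acinar cells move salt and water, had medians near 0 with Aqp5. Single members lay at or above 1 or at or below -1, in opposite directions. Of 23 in the list 10, 6, 3 and 15 were tested in the control, photon, proton and 11-day libraries, with medians of 0.22, 0.06, -0.10 and -0.23. Atp1b1, a sodium pump subunit, was at 1.02 in the control, and the potassium channel gene Kcnn4 at 0.69 in the control and 1.11 in the 11-day library. Chrm3, the M3 muscarinic receptor by which nerves start saliva flow and a mark of the study's pro-acinar cells, was at -1.45 (-1.85 to -1.07) in the 11-day library, with 56 UMIs where 154 were expected. Ano1, the calcium-activated chloride channel, was at -0.52 and the bicarbonate transporter gene Slc4a4 at -0.69 there. Of the acinar products none reached the minimum in 7-day mSGOs, and in the 11-day library Amy1, salivary amylase, was the only one tested, at -0.20 (-0.68 to 0.25).

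Duct gene lists had medians near 0 over members that lay on both sides of it. The medians of the luminal duct list were -0.01, 0.08, 0.00 and -0.20 in the control, photon, proton and 11-day libraries, and those of the basal duct list 0.28, 0.19, 0.14 and 0.02. In the control the luminal members ran from -0.80 to 0.46 and the basal ones from -0.15 to 0.97. Within them Krt18 and Krt8, simple epithelial keratins, were at 0.46 and 0.32 in the control and both at -0.20 in the 11-day library, and Krt14 was at -0.15 in the control and 0.47 in the 11-day library. The p53 target list had medians of -0.03, -0.25, -0.33 and -0.19. No macrophage, endothelial, T or NK cell or fibroblast marker reached the minimum in any organoid library. The mitochondrial list had medians of 0.14, 0.15, 0.13 and -0.01 and the dissociation stress list of -0.10, -0.12, -0.05 and -0.14. Malat1 itself was at -0.26, -0.21, -0.22 and -0.12.

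The share of Aqp5-positive barcodes that also held a given gene was set beside that of negative barcodes at the same depth. Sostdc1, known from the earlier results of these data, was found in 44.2% (34.5 to 54.3) of positive control barcodes and 24.7% of negative ones. In the 11-day library it was found in 39.8% (34.5 to 45.2) against 19.6%, while the shares were 36.8% against 23.4% after photons and 20.9% against 20.1% after protons.

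The other genes are ones by which the study named organoid populations. Itgb1, the integrin beta 1 gene of the stem/progenitor II population, was found in 89.4% (81.9 to 94.6) against 79.3% in the control. The shares were 75.4% against 77.3% in the photon, 88.4% against 78.7% in the proton and 80.4% against 80.1% in the 11-day library. Cd44, of the same population, was found in 58.7% against 55.3%, 63.2% against 50.9%, 53.5% against 53.7% and 51.5% (46.0 to 57.0) against 43.3% in the same order. Sox9, of the stem/progenitor I population, was found in 41.3% against 52.1%, 52.6% against 56.1%, 69.8% against 64.0% and 33.7% against 30.6%. Cd24a, of that population too, was found in 74.0% against 83.2%, 68.4% against 77.2%, 95.3% against 84.1% and 31.3% against 35.9%. None of these 4 genes thus differed in one direction in all 4 libraries. With at least 2 Aqp5 UMIs Cd44 was found in 72.5% (58.3 to 84.1) against 47.3% in the 11-day library and in 58.1% against 55.9% in the control. After protons it was then found in 44.4% (13.7 to 78.8) of 9 barcodes against 56.8%, and after photons in 6 of 6. Krt14 was found in 100% of positive 7-day barcodes and at least 99.8% of negative ones, and in 93.1% against 85.7% of 11-day barcodes. Kit, a receptor gene that the study used with Sox9 for intercalated duct cells, was found in 0% of positive barcodes, and in at most 0.0108% of negative ones.

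Within the aquaporin family Aqp5 differed from its relatives in its profile over the libraries. Aqp3, a water and glycerol channel of basolateral membranes of stratified epithelia, was at 207, 156 and 157 CPM in the control, photon and proton libraries. Its log2 ratio to the control was -0.41 (-0.48 to -0.34) after photons and -0.40 after protons, intervals that lay above that of Aqp5. It fell to 43.7 CPM in 11-day mSGOs, a log2 ratio of -2.22. In tissue it had 0 UMIs, where the interval reached up to 0.622 CPM and the limit of 3 counts lay at 0.506 CPM. Aqp3 and Aqp5 were thus opposite between organoids and tissue, and Aqp3 was at -0.41 (-0.63 to -0.20) in Aqp5-positive control barcodes.

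Aqp4, a water channel of brain astrocytes, was at 1.01 to 1.42 CPM in 7-day mSGOs and 10.4 CPM in 11-day mSGOs, a log2 ratio of 2.25 between the untreated libraries, opposite to Aqp5. Aqp11, an intracellular channel, lay between 1.18 and 3.46 CPM in all 5 libraries. Both had intervals that included 0 for photons and protons against the control. Aqp1, the channel of endothelial and red blood cells, was at 4.38 CPM in tissue and at most 0.281 CPM in mSGOs. Aqp6, Aqp8, Aqp12 and Mip had 0 UMIs in all libraries, and Aqp2, Aqp7 and Aqp9 did not exceed 0.506 CPM. In none of the libraries was Aqp2 or Aqp6, the neighbours of Aqp5, detected above 0.337 CPM.

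**Figure D5:**
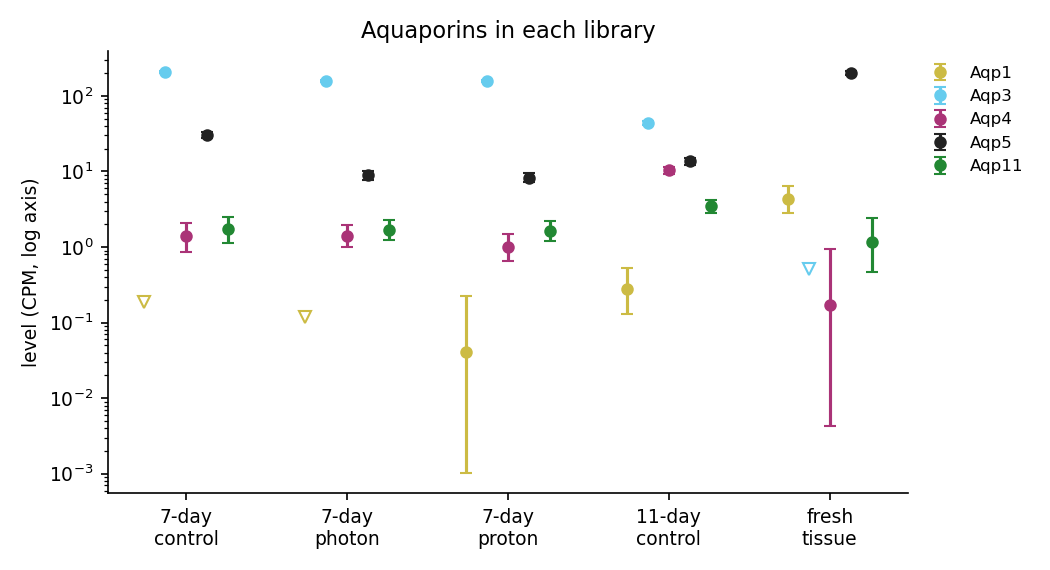
Levels of 5 aquaporin genes in CPM (log axis) in the 5 libraries. Points are library values, bars are 95% counting intervals, and open triangles mark the limit of 3 counts where a gene had 0 UMIs. Aqp5 rises to 199.8 CPM in tissue, where Aqp3 has 0 UMIs, and levels are to be read across libraries for a gene and not between genes.

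The genes whose profile over the 5 libraries was nearest to that of Aqp5 were Lst1, Ckb, Fam46c, Hspa1a and Cavin2. Likeness was the root mean square difference of centred log2(CPM + 1), which was 0.58 for Lst1, 0.60 for Ckb, 0.62 for Fam46c, 0.68 for Hspa1a and 0.69 for Cavin2, against a median of 2.39 over 6867 genes. They shared with Aqp5 the high value in tissue, 29.7 CPM for Lst1, 33.0 CPM for the creatine kinase gene Ckb, 262 CPM for the heat shock gene Hspa1a and 47.5 CPM for Cavin2. The drop after irradiation was smaller, as Hspa1a was at 39.0 CPM without irradiation and at 22.3 and 25.3 CPM after photons and protons, and Lst1 at 1.202, 0.986 and 0.887 CPM.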

How the data were processed

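The values deposited by the authors were raw UMI counts for each gene and cell barcode of 5 droplet libraries (10x Genomics, 3′). Per the submitters' processing notes Cell Ranger 5 was used; the file headers name version 3.0.1, or 7.0.0 for the 11-day library, and the sources differ on the genome build, so coordinates here are those of GRCm39 (GENCODE vM39) and were not used for counting. The gene lists held 31053 genes, or 32285 in the 11-day library. The deposited barcodes already had at least 500 UMIs.

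Barcodes were kept with at least 200 genes and at most 5% mitochondrial UMIs. Doublets were scored with Scrublet (scanpy 1.11.5), and the highest scores up to an expected rate of 0.8% per 1000 barcodes were removed in every library, since the automatic threshold was unstable. The study's minimum of 2500 genes would have kept 193, 245, 218, 637 and 25 barcodes and was run as an alternative. Levels are UMIs per 1000000 UMIs (CPM) with exact Poisson intervals. Shares have Clopper-Pearson intervals, and ratios use a pseudocount of 1 CPM with conditional binomial intervals, all at 95%. Genes were tested between libraries with at least 200 UMIs in the pair and 20 CPM in the higher library. For positive against negative barcodes, depth bins were 0.5 wide on the log2 scale, 1 UMI was added to observed and expected UMIs, and at least 40 observed plus expected UMIs were required. The comparison was tested on simulated data.

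Clusters used 2000 variable genes without Aqp5, 30 principal components, 15 neighbours and Leiden at resolution 0.8. A cluster was named from at least 3 markers at least 2-fold higher, of which at least 1 was among its 10 leading genes, and clusters whose first gene was Alas2, AY036118, Gm42418 or Lars2 were left unnamed, a choice made after their leading genes were seen. Names can change with the resolution.

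Named genes were, over the 4 organoid libraries, the 15 highest and 10 lowest by the interval bound nearest to 0, the 5 highest and 5 lowest in the untreated 7-day and in the 11-day library alone, the 5 nearest profiles, genes by which the study named populations (Kit among them), Sostdc1, and members of the 27 lists that are described. The gene, the lists and the rules were chosen with earlier results of these data known. With 1 library per group the comparisons carry no p-values.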

Additional observations from a re-analysis of the deposited data

Results flagged for a closer look

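Krt15, a keratin of basal cells, had a log2 ratio of 0.97 (0.85 to 1.08) in Aqp5-positive barcodes of untreated 7-day mSGOs and of -0.27 (-0.40 to -0.13) in those of photon-irradiated mSGOs. It was picked out because it lay on opposite sides of 0 in these libraries, and the difference was not tested. After protons it was at 0.50, with 319 of its 592 UMIs in 1 barcode, and at -0.56 without that barcode.

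Ppbp, a chemokine gene, had a log2 ratio of 1.03 (0.66 to 1.38) in Aqp5-positive barcodes after protons and of -3.36 (-3.99 to -2.79) in those of 11-day mSGOs, also on opposite sides of 0 and not tested. In the proton library 38 of its 74 UMIs lay in 1 barcode, and without that barcode the ratio was 0.07 (-0.45 to 0.55).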

How the results depend on the processing

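The ratios of Aqp5 between libraries kept their sign under all alternatives run, except proton over photon, whose interval included 0 throughout and whose log2 ratio was 0.0057 in barcodes with at least 2000 UMIs. With at least 2500 genes per barcode the levels were 60.1, 11.5, 9.59, 15.3 and 268 CPM in the control, photon, proton, 11-day and tissue libraries, and the log2 ratios -2.29 (photon over control), -2.53 (proton over control), -1.91 (11-day over 7-day), 2.14 (tissue over 7-day) and 4.05 (tissue over 11-day). With Malat1 at 1% or more the levels were 34.4 CPM (control), 7.05 CPM (proton) and 102 CPM (tissue), and these ratios -1.96, -2.14, -1.33, 1.54 and 2.86. With at most 1 Aqp5 UMI per barcode the ratios were -1.21, -1.33, -0.90, 1.85 and 2.76, and the levels 20.7, 8.40, 7.62, 10.6 and 77.4 CPM in the control, photon, proton, 11-day and tissue libraries. Over all deposited barcodes the level was 11.8 CPM in the 11-day and 139.9 CPM in the tissue library, with ratios of 2.19 and 3.46 for tissue over 7-day and over 11-day. The ratios of 11-day over 7-day, tissue over 7-day and tissue over 11-day were -1.87, 3.98 and 5.67 with median-of-ratios scaling and -1.52, 3.10 and 4.74 relative to the median of all genes with no low-value filter, and tissue over 11-day was 3.48 after thinning.

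Shares of Aqp5-positive barcodes in the same library order were 1.45%, 0.493%, 0.392%, 0.717% and 8.27% at 500 UMIs, 6.40%, 1.81%, 1.69%, 2.13% and 28.0% at 2000 UMIs, 5.04%, 1.36%, 1.23%, 3.58% and 32.7% without thinning, and 0.235%, 0.0112%, 0.0148%, 0.0643% and 1.59% where 2 UMIs were required. With Malat1 at 1% or more they were 1.90% (control), 1.07% (photon) and 8.28% (tissue), and without doublet removal 1.12% in the 11-day library. The highest cluster level was 34.9 CPM in the control at a resolution of 0.4 and 332 CPM in tissue at 1.2.

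Genes at or above 1 in Aqp5-positive barcodes (control, photon, proton, 11-day) numbered 70, 5, 11 and 19 with at least 2 Aqp5 UMIs, 1, 0, 1 and 4 after thinning, 240, 210, 186 and 162 with a minimum of 10 UMIs, and 12, 13, 13 and 2 with clusters matched. They numbered 60 in the control without depth matching, 15 in the control and 6 in the proton library without the Malat1 limit, and 46, 13 and 21 in the control, photon and 11-day libraries at a Malat1 share of 2%. Genes at or below -1 numbered 4, 0, 0 and 2 after thinning, 180, 159, 146 and 195 with a minimum of 10 UMIs, and 17, 10, 12 and 15 with clusters matched. They numbered 11 and 12 in the photon and proton libraries with at least 2 Aqp5 UMIs, 25 in the 11-day library without depth matching, 16 in either irradiated library without the Malat1 limit, and 67 in the control at a Malat1 share of 2%. Fewer barcodes or UMIs enter the stricter settings, and the cause of the other shifts was not tested. With clusters matched, 9 of 131 values of genes named by rule changed sign, namely Crct1 (0.41) and Sprr2f (0.32) after photons, Sprr1a (0.80) after protons, Pclaf (-0.53) in the control and Ube2c (-0.10), Lgals1 (-0.09), Col8a1 (-0.02), Igfbp7 (-0.26) and Krt6a (0.0048) in 11-day mSGOs. The median of the cycling list in 11-day mSGOs also did (-0.0755).

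Over all alternatives 867 values for named genes stayed within their margin, 308 moved and 3, those of Crct1, Sprr2f and Ube2c above, changed sign from at or beyond 1 or -1, and of list medians 499 stayed and 99 moved. Matching on clusters and leaving out the barcode with the most Aqp5 were chosen after seeing the data. No paired analysis was possible because each group held 1 library, and for the same reason there was no replicate to leave out. Depth limits the shares at 1000 UMIs, for which 3937 of 6494 control barcodes were too shallow, and the irradiated libraries, where 213 and 189 barcodes held Aqp5, mostly as 1 UMI.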
